A study of Homo sapiens with 36 samples.

Results

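The pyruvate dehydrogenase kinases, the phosphatases that oppose them, both subunits of the enzyme they act on and the mitochondrial pyruvate carrier were followed as 10 genes, PDK1, PDK2, PDK3, PDK4, PDP1, PDP2, PDHA1, PDHB, MPC1 and MPC2, taken by symbol from the 60591 genes of an mRNA count table. Their levels were read in 18 mRNA libraries from Caco-2 and HT-29, 2 lines derived from human colorectal adenocarcinomas, with 3 biological replicates in each of 6 groups. Caco-2 had been left for 21 days to differentiate, and HT-29 was grown in a different medium with no such period stated, so line, culture state and medium cannot be told apart. In each line the groups were control medium, 300 µM cobalt chloride (CoCl2) for 24 h, and 5 µM of an oxyquinoline derivative (OD), also for 24 h. CoCl2 and OD are used as chemical stand-ins for hypoxia because they block the enzymes, prolyl hydroxylases, whose mark sends hypoxia-inducible factor (HIF) to degradation. Control and OD medium held 0.5 µl DMSO per ml by the labels, which give the CoCl2 stock as made in water, whereas the methods published for Caco-2 add the solvent to CoCl2 medium too.

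Libraries held between 12925719 and 22332639 counts. Summed over 9 genes of enterocytes and colon epithelium, the level was 5990 to 6370 CPM (counts scaled to a common library size) in untreated Caco-2, 7730 to 8460 under CoCl2 and 6840 to 7570 under OD. The same groups of HT-29 had 1560 to 1600, 2110 to 2140 and 2010 to 2190 CPM. The brush border gene ALPI had at most 2 counts in any HT-29 library. Of the goblet cell genes, MUC2 had at most 13 counts in any Caco-2 library while TFF3 had 21.0 to 44.6 CPM there, and their sum went from 35.5 to 45.0 CPM in untreated Caco-2 down to 21.3 to 23.5 under CoCl2 and 25.8 to 28.5 under OD, and in HT-29 from 31.6 to 36.4 down to 14.8 to 20.1 and 18.4 to 22.2. The 4 fibroblast genes summed to 21.6 to 34.7 CPM over the Caco-2 libraries, mostly from COL1A1 and PDGFRA, with DCN at 3 counts or fewer in every library, and in HT-29 to 1.47 to 1.60 in control, 2.32 to 2.75 under CoCl2 and 5.27 to 6.44 under OD. The 2 endothelial genes, of which PECAM1 gave nearly all counts, went from 7.09 to 11.4 CPM in untreated Caco-2 to 1.65 to 2.35 under CoCl2 and 5.15 to 5.96 under OD. Their sum in HT-29 was at most 2.27 CPM, and the leukocyte genes PTPRC and CD68 together reached at most 0.604 CPM. On the TMM scale the epithelial sum stood higher, and the goblet and endothelial sums lower, with both agents in both lines. The part of these genes in the results was not tested. In HT-29 the TMM factors were 1.132 to 1.158 in control and 0.7889 to 0.7972 with CoCl2, enough to undo the rise of its epithelial sum with CoCl2. The sums were not computed on library size alone. A sum is led by its most abundant genes, such as APOA1 in Caco-2 (2370 to 4120 CPM), and does not give the direction of each gene. VIL1 in HT-29 had its highest count (5383) in a control library and its lowest (427) in a CoCl2 library, against the sum. The other genes were not compared singly. In bulk RNA, fewer cells of a kind and less RNA per cell cannot be told apart.

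Pyruvate made by glycolysis enters mitochondria through the carrier built of MPC1 and MPC2 and is turned into acetyl-CoA by the pyruvate dehydrogenase complex. The kinases PDK1 to PDK4 switch the complex off by phosphorylating the alpha subunit of its E1 enzyme, encoded by PDHA1, and the phosphatases PDP1 and PDP2 remove the phosphate. PDK1 and PDK3 are known HIF targets, whereas PDK4 is best known as a gene of fasting and fatty acid use, driven by PPAR and FOXO factors.

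All 10 genes were tested in HT-29 and 9 in Caco-2. PDK4 had 2 to 8 counts per Caco-2 library and was left out there. A gene passed at a false discovery rate (FDR) under 0.05 over all genes tested with edgeR's quasi-likelihood test, and it was called when the log2 fold change was also beyond 1 in either direction. CoCl2 in Caco-2 raised 3 members (PDK1, PDK3, PDP2) and lowered 6, where 31.6% of 16034 genes rose and 33.1% fell. OD in Caco-2 raised PDK1 and PDK3 and lowered PDP1 and MPC2, against backgrounds of 25.7% and 24.7%. In HT-29, CoCl2 raised 6 members (PDK1, PDK3, PDP1, PDP2, MPC1, MPC2) and lowered 3, where 40.7% of 15812 genes rose and 42.2% fell. OD in HT-29 raised 4 members (PDK3, PDP1, PDP2, MPC1) and lowered PDHA1 and PDHB, against 34.7% and 34.0%. With the fold limit, the called members were PDK1 and PDK3 for CoCl2 in Caco-2 (23.4% of all genes called), PDK1 for OD in Caco-2 (11.7%), PDK1, PDK3 and PDP2 for CoCl2 in HT-29 (41.3%) and PDK3 and PDP2 for OD in HT-29 (17.1%). The median log2 fold change of the members was -0.44, -0.08, 0.49 and 0.06 in these 4 comparisons in turn, beside -0.03, -0.02, -0.03 and 0.01 for all genes tested. So many genes passed in each comparison that the counts of members are read only beside these backgrounds. The 2 comparisons in a line share their control libraries.

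**Figure D1:**
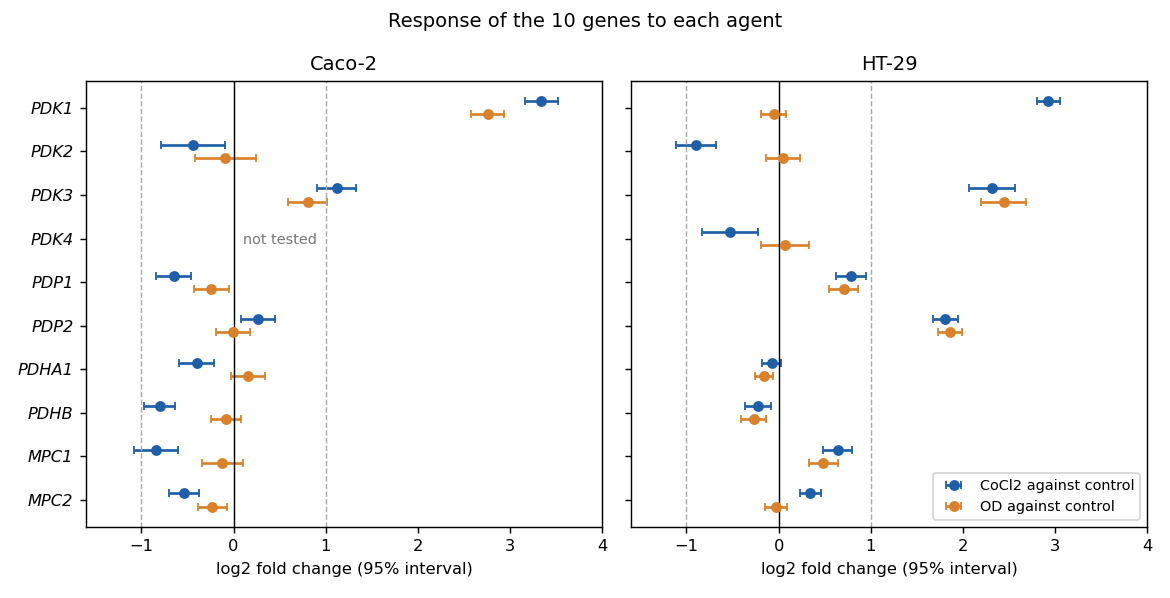
Log2 fold change against control (horizontal axis, points, with 95% intervals as bars) of the 10 genes in Caco-2 (left) and HT-29 (right) with CoCl2 (blue) and OD (orange); dashed lines mark 1 and -1. PDK1 sits at 3.34 and 2.76 in Caco-2 but at 2.93 and -0.06 in HT-29, while PDP2 sits near 0 with OD in Caco-2 and at 1.86 in HT-29; PDK4 was not tested in Caco-2.

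The promoters of PDK1, PDK3 and PDP2, the members with the largest rises, are shown for the core letters of the hypoxia response element, ACGTG or GCGTG on either strand, which read CACGT or CACGC from the other strand and overlap where CACGTG is its own reverse. The sequences come from RefSeq, build GRCh38.p14, and run 5′ to 3′ along the gene's plus strand up to a transcript start or to the first annotated exon before it. For PDK1 the 30 bases before the start of its main transcript are shown, because both matches lie in them. Capitals mark the matched letters.
PDK1, chr2:172556060-172556089: ccctgctgcccgcCACGTccctCACGTacc
PDK3, chrX:24465036-24465243: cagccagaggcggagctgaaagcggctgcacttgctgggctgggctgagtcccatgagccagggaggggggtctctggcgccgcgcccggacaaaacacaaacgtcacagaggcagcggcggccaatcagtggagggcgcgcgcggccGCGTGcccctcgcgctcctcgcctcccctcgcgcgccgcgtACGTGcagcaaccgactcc
PDP2, chr16:66880265-66880514: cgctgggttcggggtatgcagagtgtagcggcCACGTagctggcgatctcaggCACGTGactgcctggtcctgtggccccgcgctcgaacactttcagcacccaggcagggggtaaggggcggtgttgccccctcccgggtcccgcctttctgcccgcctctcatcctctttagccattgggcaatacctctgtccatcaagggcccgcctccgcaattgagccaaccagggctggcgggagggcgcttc

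PDK1 held 2 matches, PDK3 2 and PDP2 3. Matches stood in 43.2% of 35116 promoter windows of 250 bases in the same table, and 7 of the 14 windows of the 9 members listed there held one. The window of PDHB, which rose in no comparison with control, held 6, and both those of PDK1's upstream start and PDK4 held none. A match is a description of the letters and not evidence of a bound site.

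PDK1 (chromosome 2, 172555373 to 172608669, plus strand) had 23.1, 25.2 and 21.5 CPM in untreated Caco-2, 214.5, 249.5 and 242.1 with CoCl2 and 151.4, 169.6 and 153.2 with OD. In Caco-2 the groups were far apart, with every treated library several times above every control. It rose 10.1-fold with CoCl2 (log2 3.34, SE 0.09, edgeR FDR 1.1e-19) and 6.78-fold with OD (log2 2.76, SE 0.09, FDR 1.08e-17). PDK1 stood higher with CoCl2 than with OD by 0.58 on the log2 scale (SE 0.08, FDR 1.56e-06), at doses of 300 and 5 µM that are not matched.

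HT-29 gave PDK1 50.8, 50.7 and 55.1 CPM in control medium, 364.6, 380.5 and 362.3 with CoCl2 and 56.9, 46.2 and 46.3 with OD. Here CoCl2 stood alone, and the OD libraries lay on both sides of the controls. The rise with CoCl2 was 7.60-fold (log2 2.93, SE 0.06, FDR 2.51e-24), and the OD value was -0.06 (95% interval -0.19 to 0.08, FDR 0.462). Without the first OD replicate, the highest of the 3, the OD value was -0.16 with an adjusted p of 0.0213, and with library size alone as the scale it was -0.19 (adjusted p = 0.0082). The response in HT-29 less that in Caco-2 was -2.83 on the log2 scale for OD (SE 0.12, FDR 1.56e-19) and -0.52 for CoCl2 (SE 0.11, FDR 0.000207). The CoCl2 difference was -0.17 (adjusted p = 0.15) with limma on the deposited log2(RPKM + 1) values, where RPKM are reads scaled for exon length and library size. PDK1-AS1 and a Y_RNA lie on the opposite strand within PDK1, and since the use of strand in counting is not stated, their reads cannot be told apart from it.

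**Figure D2:**
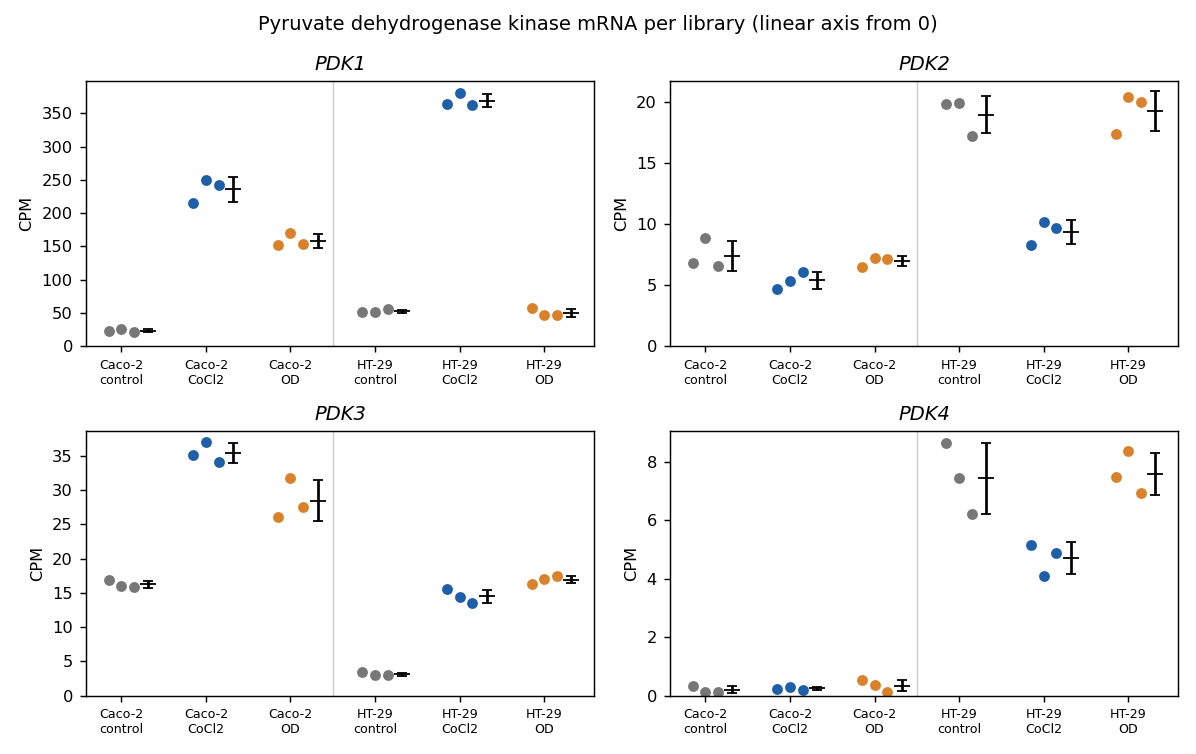
CPM (vertical axes, linear from 0) of PDK1 to PDK4 in each of the 18 libraries by line and treatment (horizontal axes); dots are libraries and the bar beside them is the mean with SD, n = 3. PDK1 in HT-29 stood at 52.2 CPM in control and 49.8 with OD, whereas PDK3 in the same cells went from 3.16 to 16.9.

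PDK3 (chromosome X, 24465244 to 24550466, plus strand) had 16.8, 16.1 and 15.9 CPM in untreated Caco-2, 35.1, 37.0 and 34.1 with CoCl2 and 26.0, 31.8 and 27.6 with OD. In HT-29 it had 3.41, 3.03 and 3.05 CPM in control medium, 15.5, 14.4 and 13.6 with CoCl2 and 16.3, 17.0 and 17.4 with OD. Untreated HT-29 thus held the lowest level of the kinase, from 51 to 77 counts per library, and both agents brought it near the level of untreated Caco-2. In Caco-2 it rose by 1.12 on the log2 scale with CoCl2 (SE 0.10, FDR 1.02e-09) and 0.81 with OD (SE 0.10, FDR 6.23e-07). HT-29 showed rises of 2.32 (SE 0.12, FDR 3.04e-16) and 2.44 (SE 0.12, FDR 1.3e-16). The response was larger in HT-29 by 1.08 with CoCl2 (SE 0.16, FDR 3.74e-07) and by 1.62 with OD (SE 0.15, FDR 1.04e-10). At 0.23 RPKM in untreated HT-29, the CoCl2 difference came to only 0.05 (adjusted p = 0.575) when the deposited log2(RPKM + 1) values were compared with limma. With OD and CoCl2 set side by side in HT-29, PDK3 differed by -0.13 (95% interval -0.31 to 0.06, FDR 0.199), a value that passed at -0.22 (adjusted p = 0.0457) in the fit of all 18 libraries and at -0.62 (adjusted p = 6.73e-07) with library size alone as the scale, while in Caco-2 CoCl2 stood above OD by 0.32 (SE 0.10, FDR 0.00966). The Caco-2 difference fell to 0.15 (adjusted p = 0.238) with library size alone as the scale.

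PDK2 (chromosome 17, 50094737 to 50112152, plus strand), the most widely expressed kinase of the family, had 6.80, 8.82 and 6.54 CPM in untreated Caco-2, 4.67, 5.35 and 6.10 with CoCl2 and 6.49, 7.22 and 7.15 with OD. In HT-29 its control libraries had 19.8, 19.9 and 17.2 CPM, those with CoCl2 8.26, 10.1 and 9.67 and those with OD 17.4, 20.4 and 20.0. CoCl2 took it down in both lines while PDK1 went up, and the OD libraries overlapped the controls in both. It fell by 0.90 on the log2 scale in HT-29 (SE 0.11, FDR 9.51e-09) and by 0.44 in Caco-2 (SE 0.17, FDR 0.0243). The Caco-2 value did not pass without control replicate 2 (-0.30, adjusted p = 0.167), CoCl2 replicate 1 (-0.35, adjusted p = 0.0873) or CoCl2 replicate 2 (-0.43, adjusted p = 0.0576). OD gave -0.09 in Caco-2 (95% interval -0.42 to 0.25, FDR 0.674) and 0.05 in HT-29 (-0.13 to 0.23, FDR 0.649). The CoCl2 response of HT-29 less that of Caco-2 was -0.57 (SE 0.19, FDR 0.0119), which did not pass without CoCl2 replicate 3 of Caco-2 (-0.46, adjusted p = 0.07), and the OD difference was 0.11 (95% interval -0.24 to 0.47, FDR 0.649). PDK2 is overlapped on the opposite strand by SAMD14 and 2 unnamed genes.

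PDK4 (chromosome 7, 95583499 to 95596516, minus strand, overlapped by PDK4-AS1) was read mainly in HT-29. HT-29 gave 8.63, 7.43 and 6.22 CPM in control medium, 5.15, 4.09 and 4.87 with CoCl2 and 7.47, 8.36 and 6.93 with OD. Its CoCl2 libraries lay below all others of that line, with a log2 fold change of -0.53 (SE 0.15, FDR 0.00205), and OD gave 0.07 (95% interval -0.19 to 0.33, FDR 0.643). In Caco-2 the 3 control libraries had 6, 2 and 2 counts, against 129, 130 and 157 in HT-29. Whether its responses differ between lines could not be seen at this depth, the CoCl2 difference being -0.85 with a 95% interval of -2.21 to 0.51 and the OD difference -0.64 with -1.90 to 0.61.

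Levels of different kinases were set beside each other only per length, as shares of the summed RPKM of the 4 PDK genes. PDK1 made up 38.5%, 37.8% and 38.0% of the sum in untreated Caco-2, 80.8%, 81.9% and 81.8% with CoCl2 and 76.7%, 75.7% and 75.5% with OD. In HT-29 it made up 37.2%, 38.4% and 43.9% in control, 86.6%, 87.0% and 86.4% with CoCl2 and 38.8%, 31.3% and 32.5% with OD. By the deposited lengths PDK1 was the largest share with CoCl2 in both lines and with OD in Caco-2, as it already was in every untreated Caco-2 library. In untreated HT-29 PDK1 and PDK2 were close, at 39.8% and 39.1% on average. PDK2 went from 32.7% ± 2.79 (SD, n = 3) to 5.05% ± 0.476 with CoCl2 in Caco-2 and from 39.1% ± 1.81 to 5.96% ± 0.545 in HT-29. PDK3 went the other way in the lines, from 29.25% ± 2.5 to 13.5% ± 0.932 under CoCl2 and 14.95% ± 0.558 under OD in Caco-2, but from 2.64% ± 0.118 to 3.73% ± 0.266 and 12.8% ± 0.584 in HT-29. PDK4 was 18.4% ± 2.23 of the sum in untreated HT-29 and was listed at 0 in Caco-2.

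With 3 libraries against 3, an exact two-sided permutation test cannot give less than 0.1, which every one of these shifts reached except those of PDK1, PDK2 and PDK4 with OD in HT-29 (exact p 0.3, 0.3 and 0.5). After adjustment over 28 such tests the smallest p was 0.14. The shares rest on the length given to each gene. For PDK3 the deposited values imply 13555 bases of exon, whereas its MANE transcript, the agreed representative, has 1741. With MANE lengths PDK3 was 70.5% ± 2.67 of the sum in untreated Caco-2 and PDK1 12.5% ± 0.538, rising to 43.2% ± 1.61 with CoCl2, and PDK3 was still the largest there at 52.5% ± 2.02. In HT-29 MANE lengths put PDK2 first in control (42.6% ± 1.76, PDK1 28.2% ± 2.79), PDK1 with CoCl2 (67.9% ± 0.821) and PDK3 with OD (46.1% ± 0.992). The order of the kinases thus depended on the length in both lines, while the direction of the shifts in PDK1, PDK2 and PDK3 did not.

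**Figure D3:**
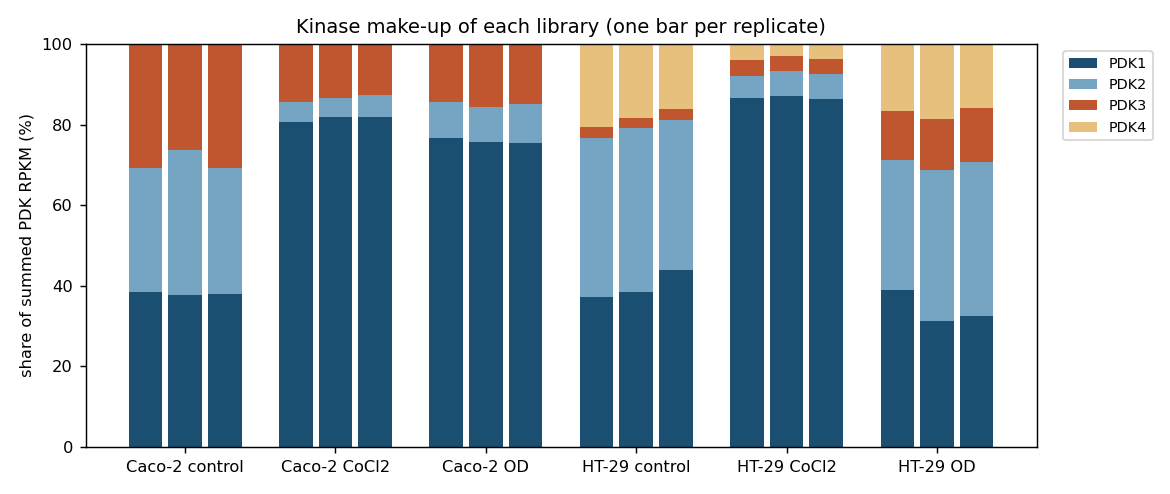
Share of the summed RPKM of the 4 kinase genes (vertical axis, percent) in each of the 18 libraries (one stacked bar per replicate, grouped by line and treatment), from the deposited values. PDK1 fills 81.5% and 75.98% of the bar on average for CoCl2 and OD in Caco-2. The HT-29 values are 86.7% and 34.2%.

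PDP2 (chromosome 16, 66878589 to 66895754, plus strand), the phosphatase subunit that does not depend on calcium, had 18.9, 17.0 and 18.03 CPM in untreated HT-29, 55.5, 61.8 and 57.4 with CoCl2 and 66.9, 65.1 and 61.9 with OD. In Caco-2 it had 90.9, 78.7 and 80.6 CPM in control, 97.7, 94.3 and 108.3 with CoCl2 and 91.8, 84.2 and 73.5 with OD. It rose with both agents in HT-29, where it had begun lowest, and in Caco-2 the OD libraries spanned the controls. The rise in HT-29 was 1.81 on the log2 scale with CoCl2 (SE 0.07, FDR 2.08e-19) and 1.86 with OD (SE 0.06, FDR 3.36e-19). In Caco-2 CoCl2 gave 0.26 (SE 0.09, FDR 0.0111) and OD -0.01 (95% interval -0.19 to 0.17, FDR 0.95). The CoCl2 value in Caco-2 turned to -0.06 (adjusted p = 0.557) with library size alone as the scale, and it did not pass without control replicate 2 (0.22, adjusted p = 0.0636), control replicate 3 (0.24, adjusted p = 0.0519) or CoCl2 replicate 3 (0.21, adjusted p = 0.074). The response was larger in HT-29 by 1.43 under CoCl2 (SE 0.12, FDR 1.83e-12) and by 1.85 under OD (SE 0.11, FDR 6.63e-15).

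PDP1 (chromosome 8, 93857807 to 93926068, plus strand, overlapped by MIR378D2HG), whose phosphatase is stimulated by calcium, moved in opposite directions in the lines. Caco-2 gave 54.4, 48.0 and 55.8 CPM in control medium, 29.5, 34.2 and 36.7 with CoCl2 and 45.9, 44.1 and 43.95 with OD. HT-29 gave 15.9, 15.1 and 16.4 CPM in control, 25.4, 26.0 and 24.5 with CoCl2 and 28.0, 24.2 and 24.5 with OD. None of the treated groups overlapped its controls. In Caco-2 it fell by 0.65 with CoCl2 (SE 0.09, FDR 1.51e-06) and by 0.24 with OD (SE 0.09, FDR 0.0299). The OD value did not pass without control replicate 1 or 3 or OD replicate 2 or 3, at -0.22, -0.20, -0.23 and -0.22, or with no filter on low counts (-0.21, adjusted p = 0.107). HT-29 showed rises of 0.79 with CoCl2 (SE 0.08, FDR 5.29e-10) and 0.71 with OD (SE 0.08, FDR 4.54e-09). HT-29 less Caco-2, the responses differed by 1.33 under CoCl2 (SE 0.12, FDR 4.96e-11) and by 0.93 under OD (SE 0.12, FDR 8.31e-08).

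How far the scale matters was visible here. Scaling by library size alone moved the median of all genes in Caco-2 by -0.32 under CoCl2 and -0.15 under OD. For HT-29 the shifts were -0.63 and -0.14, and changes are given relative to the scale of trimmed means (TMM). On the library size scale the CoCl2 value of PDP1 in HT-29 was 0.15 (adjusted p = 0.0661).

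The summed RPKM of the kinases against that of both phosphatases gave a log2 ratio of -2.36, -2.01 and -2.37 in untreated Caco-2, 0.06, 0.22 and 0.01 with CoCl2 and -0.54, -0.27 and -0.30 with OD. In HT-29 it was 0.84, 0.90 and 0.72 in control, 1.33, 1.28 and 1.31 with CoCl2 and -0.41, -0.30 and -0.31 with OD. Kinase mRNA gained on phosphatase mRNA in Caco-2 with both agents, and in HT-29 the libraries with OD lay below the controls. The differences in means were 2.35 and 1.88 for Caco-2, against 0.48 and -1.16 for HT-29, each with an exact permutation p of 0.1, the smallest that 3 against 3 allows. With MANE lengths the ratios in untreated cells moved to -0.88 for Caco-2 and 1.06 for HT-29. Those under OD became 0.40 and 0.46, and every direction was kept.

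**Figure D4:**
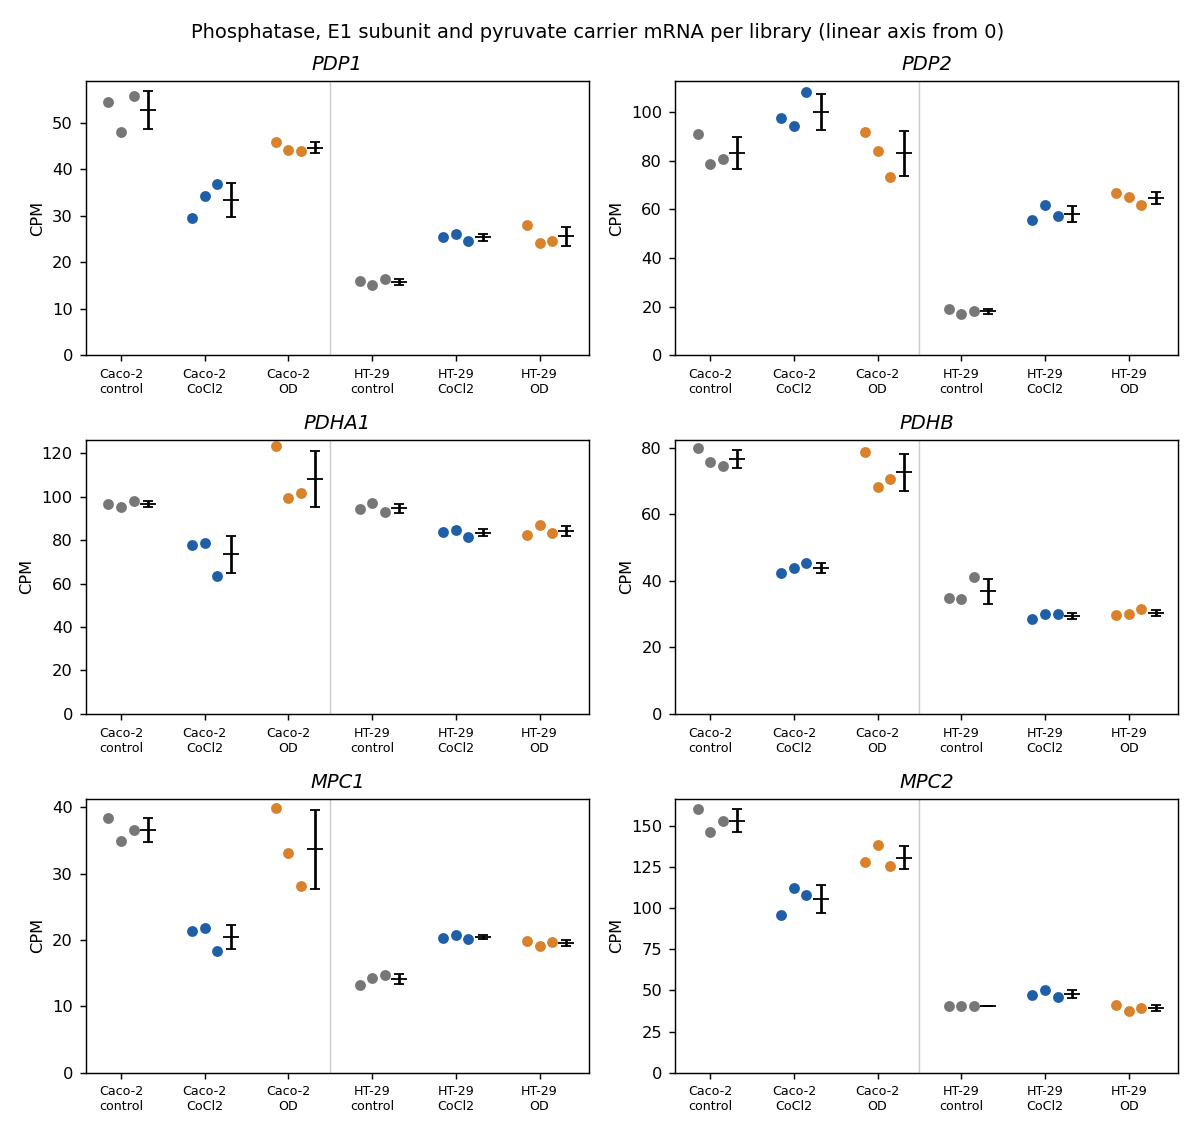
CPM (vertical axes, linear from 0) of the phosphatases PDP1 and PDP2, the E1 subunits PDHA1 and PDHB and the carrier subunits MPC1 and MPC2 in the 18 libraries by line and treatment (horizontal axes); dots are libraries and the bar is the mean with SD, n = 3. PDP1 falls from 52.7 to 33.5 CPM with CoCl2 in Caco-2 and rises from 15.8 to 25.3 in HT-29, and PDP2 in HT-29 goes from 17.99 to 58.2 and 64.6 CPM.

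PDHA1 (chromosome X, 19343893 to 19361718, plus strand, overlapped by MAP3K15), which encodes the subunit that the kinases phosphorylate, had the narrowest range of the members over the 18 libraries. It had 96.5, 95.4 and 98.2 CPM in untreated Caco-2, 77.8, 78.8 and 63.6 with CoCl2 and 123.2, 99.6 and 101.9 with OD. In HT-29 it had 94.2, 97.0 and 93.1 CPM in control, 83.9, 84.7 and 81.7 with CoCl2 and 82.4, 86.9 and 83.5 with OD. The untreated lines overlapped, and the lowest library was one of CoCl2 in Caco-2. It fell by 0.40 with CoCl2 in Caco-2 (SE 0.09, FDR 0.000503) and by 0.15 in HT-29 given OD (SE 0.05, FDR 0.00591). The other values were 0.16 for OD in Caco-2 (FDR 0.14) and -0.08 for CoCl2 in HT-29 (95% interval -0.18 to 0.03, FDR 0.156). The last value was -0.18 (adjusted p = 0.0298) when all 18 libraries were fitted together, the scale on which CPM are given, and -0.71 (adjusted p = 3.23e-13) with library size alone. On the 18-library fit the OD value in HT-29 was -0.17 (adjusted p = 0.0538). The difference of HT-29 less Caco-2 in the OD response was -0.33 (SE 0.11, FDR 0.0106), and in the CoCl2 response 0.22 (FDR 0.0924).

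PDHB (chromosome 3, 58427630 to 58433857, minus strand), the beta subunit of the same enzyme, had 79.8, 75.6 and 74.4 CPM in untreated Caco-2, 42.4, 44.01 and 45.3 with CoCl2 and 78.8, 68.3 and 70.8 with OD. In HT-29 it had 34.9, 34.6 and 41.2 CPM in control, 28.4, 30.0 and 29.9 with CoCl2 and 29.8, 30.0 and 31.5 with OD. CoCl2 took it down in both lines, further in Caco-2. It fell by 0.80 in Caco-2 (SE 0.08, FDR 6.4e-09) and by 0.23 in HT-29 (SE 0.07, FDR 0.00422). Given OD, HT-29 also showed a log2 change of -0.27 (SE 0.07, FDR 0.000785). The CoCl2 value in HT-29 did not pass without control replicate 3, the highest of the controls (-0.14, adjusted p = 0.0621). With OD in Caco-2 the value was -0.08 (FDR 0.407). The lines differed in the CoCl2 response by 0.47 (SE 0.11, FDR 0.000443), and the OD difference was -0.20 (95% interval -0.42 to 0.0085, FDR 0.117). The log2 ratio of PDHA1 to PDHB per length went from 0.40 ± 0.06 (SD, n = 3) in untreated Caco-2 to 0.80 ± 0.21 with CoCl2 and 0.64 ± 0.06 with OD (exact permutation p 0.1 each). In HT-29 it was 1.43 ± 0.17, 1.57 ± 0.06 and 1.54 ± 0.06 (exact permutation p 0.2 and 0.5). With MANE lengths the Caco-2 ratios were -0.82, -0.42 and -0.58, so which subunit stood higher there depended on the length. PDHB overlaps an unnamed gene on the opposite strand.

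MPC1 (chromosome 6, 166364919 to 166383013, minus strand) had 38.4, 34.9 and 36.5 CPM in untreated Caco-2, 21.3, 21.8 and 18.4 with CoCl2 and 40.0, 33.1 and 28.1 with OD. In HT-29 it had 13.2, 14.3 and 14.7 CPM in control, 20.3, 20.8 and 20.2 with CoCl2 and 19.9, 19.1 and 19.7 with OD. With CoCl2 the lines overlapped, having come from opposite sides, at 20.5 CPM in Caco-2 and 20.4 in HT-29 on average. In Caco-2 CoCl2 gave a log2 change of -0.84 (SE 0.11, FDR 7.14e-07). HT-29 showed rises of 0.64 with CoCl2 (SE 0.08, FDR 2.95e-08) and 0.48 with OD (SE 0.08, FDR 3.22e-06). The HT-29 value with CoCl2 was 0.01 (adjusted p = 0.934) on the library size scale. OD in Caco-2 gave -0.12 (95% interval -0.35 to 0.11, FDR 0.374), and -0.26 (adjusted p = 0.0455) without OD replicate 1. HT-29 exceeded Caco-2 in response by 1.38 under CoCl2 (SE 0.14, FDR 7.41e-10) and by 0.59 under OD (SE 0.14, FDR 0.000749).

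MPC2 (chromosome 1, 167916675 to 167937072, minus strand, overlapped by DCAF6), the partner without which MPC1 forms no carrier, had 160.3, 146.0 and 153.1 CPM in untreated Caco-2, 95.9, 112.0 and 108.2 with CoCl2 and 127.8, 138.4 and 125.7 with OD. HT-29 gave 40.5, 40.3 and 40.7 CPM in control, 47.3, 50.1 and 45.7 with CoCl2 and 41.3, 37.6 and 39.2 with OD. Both agents took all 3 libraries below the controls in Caco-2, and only CoCl2 took them above in HT-29. In Caco-2 the log2 changes were -0.54 with CoCl2 (SE 0.08, FDR 1.61e-06) and -0.23 with OD (SE 0.08, FDR 0.0144). The OD value did not pass without control replicate 1 (-0.20, adjusted p = 0.0811) or OD replicate 3 (-0.20, adjusted p = 0.0606), or with no filter on low counts (-0.20, adjusted p = 0.0599). In HT-29 CoCl2 gave 0.35 (SE 0.06, FDR 4.87e-06), which turned to -0.29 (adjusted p = 4.24e-05) on the library size scale, and OD gave -0.03 (95% interval -0.14 to 0.09, FDR 0.702), or -0.16 (adjusted p = 0.0127) on that scale. Between lines the CoCl2 response differed by 0.77 (SE 0.10, FDR 3.69e-08) and that to OD by 0.19 (FDR 0.12).

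Within the carrier, the log2 ratio of MPC1 to MPC2 per length was -1.292, -1.295 and -1.296 in untreated Caco-2, -1.40, -1.59 and -1.78 with CoCl2 and -0.91, -1.295 and -1.39 with OD. In HT-29 it was -0.84, -0.73 and -0.70 in control, -0.45, -0.50 and -0.41 with CoCl2 and -0.28, -0.21 and -0.22 with OD. The ratio of both subunits lies within a library, so it does not depend on the scale between libraries. Its means differed from control by -0.30 with CoCl2 in Caco-2 and, in HT-29, by 0.30 with CoCl2 and 0.52 with OD (exact permutation p 0.1 each), and OD in Caco-2 gave 0.098 (exact permutation p 0.8). With MANE lengths the HT-29 ratio was -0.23 in control, 0.08 with CoCl2 and 0.29 with OD, so its sign in treated HT-29 depended on the length.

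Between the untreated lines, 9 of the 10 genes passed and were called, as were 45.8% of all genes. HT-29 held more of PDK1, PDK2 and PDK4 (39.5% of 17921 genes were higher) and less of PDK3, PDP1, PDP2, PDHB, MPC1 and MPC2 (39.6% lower). The log2 differences of HT-29 less Caco-2 ran from -2.37 for PDK3 (SE 0.13, FDR 5.97e-19) and -2.22 for PDP2 (SE 0.09, FDR 3.19e-22) to 1.35 for PDK2 (SE 0.12, FDR 3.95e-12). PDK1 differed by 1.17, and PDP1, PDHB, MPC1 and MPC2 by -1.74, -1.05, -1.37 and -1.92. PDK4 had a fitted value of 5.07 (SE 0.48, FDR 5.28e-17), which rests on the few counts in Caco-2. PDHA1 differed by -0.03 (95% interval -0.18 to 0.12, FDR 0.729). The lines therefore began from unlike levels of 9 of these genes, which bears on every fold change set side by side.

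For the difference in response between lines, 6 members were higher and 2 lower in HT-29 with CoCl2, where 21.1% of all genes were higher and 28.6% lower. With OD it was 4 higher and 2 lower, against 20.9% and 22.0%. CoCl2 against OD in Caco-2 left PDK1, PDK3 and PDP2 higher with CoCl2 and PDP1, PDHA1, PDHB, MPC1 and MPC2 lower (24.4% of all genes higher and 25.2% lower). The log2 differences of PDP1, PDHA1, PDHB, MPC1 and MPC2 were -0.41, -0.56, -0.72, -0.72 and -0.31, and PDK2 gave -0.35 (FDR 0.0859). In HT-29 the same comparison left PDK1 and MPC2 higher and PDK2 and PDK4 lower (37.1% and 40.6%). PDK1 was the 1 member called there, at 2.98 (SE 0.06, FDR 6.14e-24), where 29.9% of all genes were called. PDK2 and PDK4 differed by -0.95 and -0.60, and PDHA1, PDHB and MPC1, at 0.08, 0.05 and 0.16, did not pass. PDP1 gave 0.08 (95% interval -0.07 to 0.23) and PDP2 -0.06 (-0.17 to 0.06), which became -0.42 (adjusted p = 1.07e-05) and -0.55 (adjusted p = 1.07e-09) on the library size scale. MPC2, higher with CoCl2 by 0.37 in HT-29, turned to -0.13 (adjusted p = 0.0468) on the library size scale. PDP2, higher by 0.27 in Caco-2 (FDR 0.0127), did not pass without CoCl2 replicate 3 (0.21, adjusted p = 0.0893) or OD replicate 3 (0.19, adjusted p = 0.0979), or on the library size scale (0.11, adjusted p = 0.308).

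Over the 18 libraries, with each line centred on its own mean of log2 CPM, the gene most like PDK1 among 10436 was SLC2A1, the glucose transporter GLUT1 (Pearson r 0.99), followed by YEATS2 and IMPAD1 (0.99 each). For PDK3 they included PIM1 (0.99) and TSKU (0.98), and for PDP2 they were ATP2B4, SAT2 and RAB3B (0.99, 0.98 and 0.98). Among the members themselves PDK3 and PDP2 were the most alike (0.93), then PDP1 and MPC1 (0.87) and PDHA1 and PDHB (0.84), and PDK1 and PDK2 were the most opposed (-0.78). ZNF600, MEGF9, C3orf62, ATP5MC1, ACACA and SESN3 led for PDK2, PDP1, PDHA1, PDHB, MPC1 and MPC2, at 0.96, 0.95, 0.95, 0.97, 0.93 and 0.94. These values describe 18 libraries that fall into the 6 groups and share their treatments.

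The rest of the pathway was read from lists of named genes. Of the other proteins of the complex, DLAT is its E2 core, DLD its E3, PDHX the protein that tethers E3 and PDPR the regulatory subunit of the phosphatase. CoCl2 raised 1 of the 4 tested and lowered 2 in Caco-2 and raised 3 and lowered 1 in HT-29, and OD raised 1 and lowered 1 in Caco-2 and lowered 3 in HT-29. DLAT changed by -0.50 under CoCl2 and 0.37 under OD in Caco-2, and by -0.40 and -0.81 in HT-29. The rises of DLD (0.61), PDHX (0.50) and PDPR (0.62) with CoCl2 in HT-29 were each smaller than the shift between scales.

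**Figure D5:**
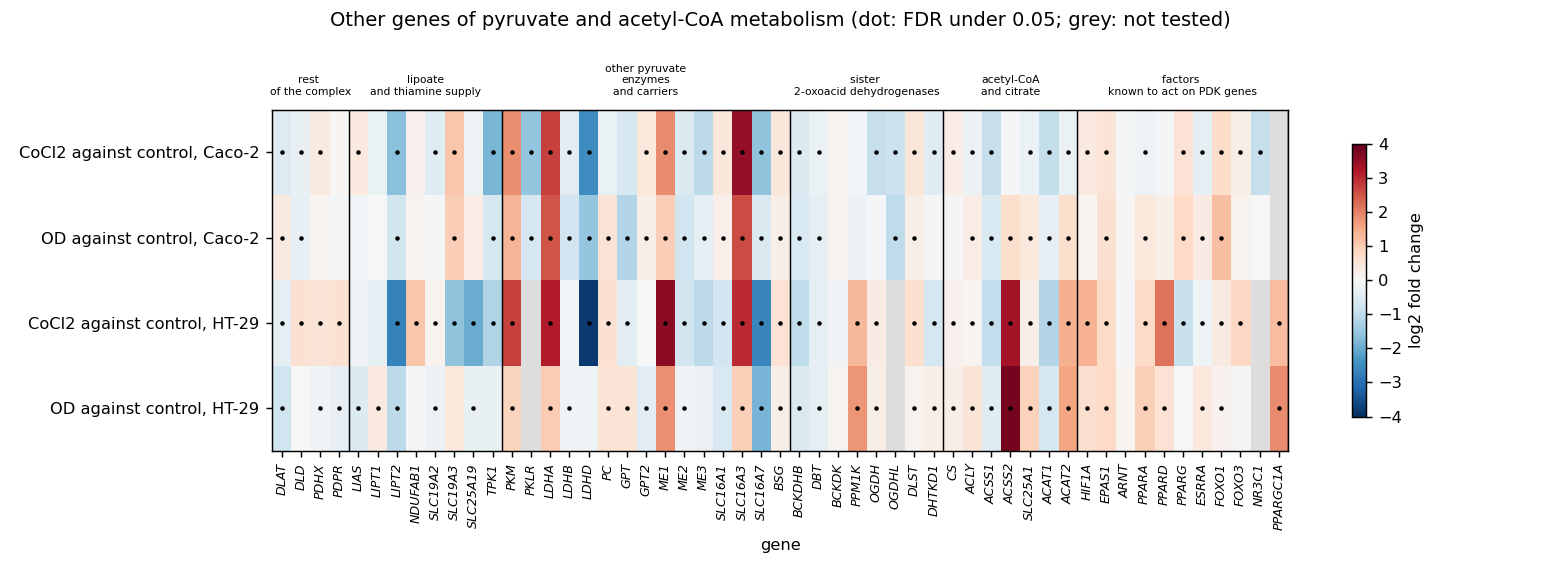
Log2 fold change against control (colour, red higher and blue lower) of the genes of 6 lists around pyruvate and acetyl-CoA (columns) in the 4 treatment comparisons (rows); a black dot marks an FDR under 0.05 and grey a gene not tested. LDHA and SLC16A3 are red in all 4 rows, and ACSS2 is deep red in HT-29 with CoCl2 (3.32) and OD (3.83).

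Among the other enzymes and carriers of pyruvate, CoCl2 raised 7 and lowered 6 of 15 tested in Caco-2 and raised 6 and lowered 6 of 14 in HT-29. OD raised 8 and lowered 7 of 15 in Caco-2 and raised 7 and lowered 5 of 14 in HT-29. LDHA, the muscle-type lactate dehydrogenase subunit that turns pyruvate into lactate, rose by 2.75 and 2.51 in Caco-2 and by 3.18 and 1.01 in HT-29 with CoCl2 and OD. SLC16A3, the lactate exporter MCT4, went from 5.56 ± 1.05 CPM (SD, n = 3) to 64.0 ± 7.97 under CoCl2 and 33.6 ± 2.18 under OD in Caco-2, and from 47.4 ± 2.13 to 350.1 ± 19.6 and 90.1 ± 5.36 in HT-29. ME1, the cytosolic malic enzyme that makes pyruvate and NADPH, rose by 3.56 under CoCl2 and 1.82 under OD in HT-29 and by 1.89 with CoCl2 in Caco-2. PKM, the pyruvate kinase, rose by 2.74 with CoCl2 in HT-29 and by 1.87 with CoCl2 in Caco-2. LDHD, which oxidises D-lactate, fell in Caco-2 with CoCl2 (log2 -2.49) and OD (log2 -1.54), and SLC16A7, the monocarboxylate carrier MCT2, fell in HT-29 with OD (log2 -1.85) and CoCl2 (log2 -2.62) and in Caco-2 with CoCl2 (log2 -1.61) and OD (log2 -0.58).

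Lipoate is attached to DLAT and thiamine pyrophosphate sits in E1. Of 8 genes of their supply, CoCl2 raised 2 and lowered 3 in Caco-2 and raised 2 and lowered 4 in HT-29, and OD raised 1 and lowered 2 in Caco-2 and raised 1 and lowered 4 in HT-29. LIPT2, the transferase that starts lipoate synthesis, went from 9.83 ± 0.698 to 3.12 ± 0.796 CPM with CoCl2 in Caco-2 and from 9.95 ± 1.36 to 1.40 ± 0.600 under CoCl2 and 4.77 ± 0.408 under OD in HT-29. The thiamine transporter SLC19A3 rose by 1.10 with CoCl2 in Caco-2, and NDUFAB1, the acyl carrier on which lipoate is made, by 1.10 with CoCl2 in HT-29.

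The sister complexes of branched-chain and 2-oxoglutarate breakdown had 1 gene raised and 5 lowered of 8 with CoCl2 in Caco-2, 1 and 3 with OD, 3 and 3 of 7 with CoCl2 in HT-29 and 4 and 2 with OD. PPM1K, the phosphatase of the branched-chain complex, rose in HT-29, by 1.30 under CoCl2 and 1.75 under OD. BCKDHB fell with CoCl2 in HT-29 (log2 -1.002) and OGDHL fell with OD in Caco-2 (log2 -1.01). Of 7 genes of acetyl-CoA and citrate, CoCl2 raised 1 and lowered 5 in Caco-2 and raised 5 and lowered 2 in HT-29, and OD raised 4 and lowered 2 in Caco-2 and raised 5 and lowered 2 in HT-29. ACSS2, which makes acetyl-CoA from acetate in the cytosol and nucleus, went from 27.5 ± 1.23 CPM to 254.5 ± 4.57 under CoCl2 and 386.7 ± 31.0 under OD in HT-29. ACAT2 rose by 1.42 and 1.58 there, and ACAT1 fell with CoCl2 (log2 -1.18).

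Of 10 factors known to act on PDK genes, CoCl2 raised 5 and lowered 3 in Caco-2 and raised 7 and lowered 2 in HT-29 and OD raised 5 in Caco-2 and 7 in HT-29, the others not passing. PPARD, a fatty acid receptor, rose by 2.18 and HIF1A by 1.40 with CoCl2 in HT-29, and FOXO1 rose by 1.19 with OD in Caco-2. These lists were described by their counts, and no test of a list was made.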

How the data were processed

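Strand-specific libraries had been read as single 75-base ends. Per the submitters' processing notes and the methods given for Caco-2, the authors trimmed reads with cutadapt 2.10, mapped them with STAR 2.7.5b to GRCh38.p13 and deposited raw counts per GENCODE gene, together with a table of log2(RPKM + 1) values. That log2 table was checked to be scaled within each line with TMM factors and 1 exon length per gene, so the untreated lines were not compared on it. Within a line it was turned back to RPKM for shares and ratios. As an alternative, limma was run on it within each line and, in a joint fit of both lines, for differences in response. How strand was used in counting is not given in the sources used here.

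Counts were tested with edgeR 4.0.16 (quasi-likelihood, filterByExpr, TMM, Benjamini-Hochberg over all genes) in R 4.3.3, with 9 libraries per line or, for differences between lines, all 18. CPM were scaled with TMM factors over all 18 libraries, so ratios of CPM can differ from fitted folds. Alternatives were DESeq2 1.42.0, limma 3.58.1, other scalings, filters and sample sets, and leaving out each library; the script was tested on simulated data. Every p-value measures only the spread between these libraries. The 10 genes and all lists were chosen with earlier results of these data known. All members are described. From each list, up to 4 genes with the largest changes among those called, with a mean count of at least 100, may be named. Other values given were chosen after they were seen (DLAT, DLD, PDHX, PDPR, PKM in Caco-2, SLC16A3 with OD in HT-29, and SLC16A7 beyond OD in HT-29). The 3 genes most like each member were taken by Pearson r, and 1 of them is not reported here. The miRNA libraries were not used here. Intervals cover 95%.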

Additional observations from a re-analysis of the deposited data

Results flagged for a closer look

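Differences between the lines in the response to a treatment, given as HT-29 less Caco-2 on the log2 scale, passed edgeR's test for 8 members with CoCl2 and 6 with OD. Of all 17921 genes tested, 21.1% were higher and 28.6% lower with CoCl2, and 20.9% and 22.0% with OD. With CoCl2 they were -0.52 for PDK1, -0.57 for PDK2, 1.08 for PDK3, 1.33 for PDP1, 1.43 for PDP2, 0.47 for PDHB, 1.38 for MPC1 and 0.77 for MPC2. With OD they were -2.83 for PDK1, 1.62 for PDK3, 0.93 for PDP1, 1.85 for PDP2, -0.33 for PDHA1 and 0.59 for MPC1. The CoCl2 differences of PDK1 and PDK3 did not pass with limma on the deposited values at a pseudocount of 1 (-0.17 and 0.05). With limma at a pseudocount of 0.1 both kept their direction and passed. In PDK1 the larger response was that of Caco-2, and in PDK3 and PDP2 that of HT-29.

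In 4 cases, each a quantity set per length with a single agent, every treated library moved one way from its controls in Caco-2 and the opposite way in HT-29. The difference between the lines was not tested. The share of PDK3 among the kinases went down in Caco-2 and up in HT-29, with responses 16.9 percentage points apart for CoCl2 and 24.4 for OD. PDK3 mRNA itself rose in both lines with both agents, and its share in untreated cells was 29.25% in Caco-2 and 2.64% in HT-29. With MANE lengths the share responses were -18.01 points in Caco-2 and 7.81 in HT-29 for CoCl2, and -15.65 and 32.32 for OD. With OD the log2 ratio of kinase to phosphatase mRNA went up in Caco-2 but down in HT-29, the gap being -3.04 by the deposited lengths. MANE lengths kept both directions but narrowed this gap, the OD response being 1.28 for Caco-2 cells against -0.60 for HT-29 cells. The log2 ratio of MPC1 to MPC2 went down with CoCl2 in Caco-2 and up in HT-29, a gap of 0.60.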

How the results depend on the processing

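Of 1752 values of single members under other settings, 1676 kept their direction and their side of the threshold, 27 no longer passed, 26 newly passed and 23 turned sign. Scaling by library size alone turned PDP2 with CoCl2 in Caco-2 to -0.058, MPC2 with CoCl2 in HT-29 to -0.29, and PDK2 and PDK4 with OD in HT-29 to -0.089 and -0.066. For CoCl2 against OD in HT-29 it turned PDP1 to -0.42, PDHA1 to -0.42, PDHB to -0.45, MPC1 to -0.34 and MPC2 to -0.13, and 10 members passed instead of 4. One fit of all 18 libraries turned PDP1, PDHA1 and PDHB there to -0.013, -0.014 and -0.048. PDHB there was -0.0071 with no low-count filter and -0.019 and -0.022 with limma at pseudocounts of 1 and 0.1. With no filter PDP2 with OD in Caco-2 was 0.023, and 2 members passed for OD in Caco-2 instead of 4, PDP1 and MPC2 being lost. Leaving out 1 library at a time gave -0.16 to 0.057 for PDK2 and -0.083 to 0.080 for PDP2 with OD in Caco-2, -0.039 to 0.12 for PDK2, -0.074 to 0.18 for PDK4 and -0.062 to 0.0094 for MPC2 with OD in HT-29, -0.033 to 0.19 for the line difference of PDK2 with OD, and -0.048 to 0.19 for the MPC1 to MPC2 ratio with OD in Caco-2, and 2 to 5 members passed with OD in Caco-2.

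Limma on the deposited values, which list fewer genes and add a pseudocount of 1 or 0.1 to RPKM, called 1098 and 2116 genes for CoCl2 in Caco-2 (edgeR 3747), 381 and 878 for OD in Caco-2 (1876), 341 and 848 for CoCl2 against OD in Caco-2 (1868), 2520 and 3893 for CoCl2 in HT-29 (6524), 744 and 1295 for OD in HT-29 (2699), 1455 and 2599 for CoCl2 against OD in HT-29 (4734), 1304 and 2097 for the line difference with CoCl2 (3875) and 795 and 1355 with OD (2724). The untreated lines were not compared with limma, their values having been scaled separately. MANE lengths were added after seeing the data. Apart from the stated scaling and leave-one-out cases, the cause of a change was not tested.

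Deviations from the group mean correlated at -0.238 to 0.248 between libraries with the same replicate number. Between libraries with different numbers the range was -0.299 to 0.356. No pairing was visible, but with 3 libraries per group this cannot exclude that the numbers mark a shared culture, which is not stated. With the replicate number as a block, 9, 4, 8, 9, 6, 4, 8, 6 and 9 members passed over the 9 comparisons, the same counts as without the block.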
